A study of Mus musculus with 3 samples.

Results

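The respiratory chain genes described here are the 119 genes whose symbols start with Nduf, Uqcr, Atp5, Sdha to Sdhd or Cox followed by a digit, together with the 13 protein-coding genes of the mitochondrial genome, which are counted within the 119. Symbols ending in -ps were left out. They were taken from the 32285 genes of the count tables, and 106 of them lie in the nucleus, on 19 chromosomes. By complex, the nuclear members number 44 for complex I, 8 for complex II, 8 for complex III, 29 for complex IV and 17 for complex V, and 21 of the 106 are assembly factors rather than subunits. The mitochondrial members number 7 for complex I, 1 for complex III, 3 for complex IV and 2 for complex V. At least 1 UMI (unique molecular identifier, which counts an RNA molecule once) was found in every library for 116 members, and Cox7b2, Cox8b and Cox8c had 0 UMIs in all kept cells of the 3 libraries.

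The respiratory chain sits in the inner mitochondrial membrane. Complexes I and II feed electrons from NADH and succinate to ubiquinone, complex III passes them to cytochrome c, complex IV hands them to oxygen, and complex V uses the proton gradient so built to make ATP. Most subunits are made from nuclear genes and imported, a small core is made inside the mitochondrion, and complex II has no subunit of mitochondrial origin. Kidney tubules depend heavily on this pathway because sodium reabsorption consumes ATP.

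RNA of single cells from whole kidneys was sequenced in droplets, from male mice aged 28 weeks. The groups were db/db mice on a diet with 60% fructose, db/db mice on a fructose-free control diet, and db/m mice on the same control diet, each fed from 8 weeks of age for 20 weeks. In db/db mice, which grow obese and diabetic, no cell has a working long leptin receptor, while db/m mice keep 1 normal copy of the gene and stay lean. Kidneys were digested with enzymes, and red cells, debris and dead cells were removed, which bears on how much mitochondrial RNA a cell keeps. Each group gave 1 library, how many mice went into it is not stated in the labels used here, and no difference below has a replicate or a test. The comparison of db/db fructose with db/db control addresses the diet, and that of db/db control with db/m control the genotype; both use the same db/db control library, so their values are given side by side and not set against each other.

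The tables held 20383 barcodes in the db/db fructose library, 26513 in the db/db control library and 13524 in the db/m library, with 42028885, 52704335 and 31660184 UMIs. Barcodes with over 50% mitochondrial UMIs made up 5.19%, 20.0% and 16.8% of them in that order, and were removed with low-gene barcodes and likely doublets, leaving 16043, 16221 and 9949 cells with a median of 1530, 1627 and 1687 UMIs. The fructose and db/db control libraries shared 780 barcode sequences, the fructose and db/m libraries 379, and the db/db control and db/m libraries 509. Cells were clustered without the respiratory chain genes, so none of them took part in the clustering. The limit on mitochondrial UMIs and the doublet scores did use them, and so shaped which cells were kept. Classes were named from marker lists and carry the ending "-like". Clusters that met no name held 6.61% of db/db fructose cells, 23.6% of db/db control cells and 2.63% of db/m cells. The db/db control library thus stood apart in its mitochondrial share and in its unnamed cells, of which 3646 were in cluster 3, whose cells had a median of 32.8% mitochondrial UMIs.

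Nuclear members are given as CPM, here counts per 1000000 nuclear UMIs of a class and library, which leaves the mitochondrial UMIs out of the denominator. Mitochondrial members are given as a percent of all UMIs or on that same CPM scale. Ratios carry a 95% interval from an exact conditional binomial method, in square brackets, and all intervals cover counting error only. In such sums, fewer mitochondria per cell and less RNA per mitochondrion cannot be told apart.

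Across classes, the nuclear members were high in the loop of Henle, distal tubule and collecting duct and low in erythroid-like and mononuclear phagocyte-like cells, with proximal tubule-like cells as low in both db/db libraries but not in db/m. Intercalated-like cells, the acid- and base-secreting cells of the collecting duct, held 42021 CPM in db/db fructose, 65015 in db/db control and 71445 in db/m. Connecting tubule and principal-like cells, which fine-tune sodium, potassium and water, held 48785, 43707 and 53460 CPM in the same order. Thick ascending limb-like cells held 38544, 43661 and 50587, and distal convoluted tubule-like cells 30673, 35967 and 50708. The order of these 4 classes therefore differed between libraries, with intercalated-like cells on top in both control-diet libraries and connecting tubule and principal-like cells above them in the fructose library. That last order did not hold by depth. In the fructose library, intercalated-like cells held 20575, 46258 and 77689 CPM at 1000 to under 2000, 2000 to under 4000, and 4000 or more UMIs. Connecting tubule and principal-like cells held 19693.5, 37992 and 58541 there, and 22766 against 19820 at 500 to under 1000. Cells with 4000 UMIs or more made up 7.75% of the intercalated-like class and 30.1% of the other. Thin limb-like cells, of which 58, 30 and 70 were kept in db/db fructose, db/db control and db/m, held 53677, 43518 and 43798, the highest class of the fructose library. Endothelium-like cells held 21402 CPM in db/db fructose, 22066 in db/db control and 21970 in db/m. Proximal tubule-like cells, the bulk reabsorbers of filtered salt, glucose and amino acids, held 16940, 18263 and 23604. Mononuclear phagocyte-like cells, only 47 of them in db/m, held 17923, 17806 and 17326, and erythroid-like cells 14060, 17466 and 14681. Lymphocyte-like cells, 32 to 36 per library, held 24337, 25657 and 22441. Proximal tubule-like cells lay below endothelium-like cells in both db/db libraries and above them in db/m.

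Most nuclear members shared this ranking. In the 7 classes with at least 100 cells in each library, 92 nuclear members reached 50 CPM in some class and library. Of these, 13 were highest in intercalated-like cells in db/db fructose, 77 in db/db control and 76 in db/m. Connecting tubule and principal-like cells held the highest level for 68 of the 92 in db/db fructose, 6 in db/db control and 5 in db/m. These counts are over whole classes, whose depth differed as given above. The exception among tubule classes was Sdhaf1, an assembly factor that helps place iron-sulfur clusters in succinate dehydrogenase, which was highest in proximal tubule-like cells in the fructose library and in endothelium-like cells in the db/m library. The lowest level fell in erythroid-like cells for 65, 53 and 83 of the 92 members in db/db fructose, db/db control and db/m, and in proximal tubule-like cells for 23, 29 and 2. The log2 ratio of intercalated-like over proximal tubule-like cells had a median over members of 1.26 in db/db fructose, 1.81 in db/db control and 1.55 in db/m.

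Mitochondrial members ran differently from nuclear ones. They made up 11.4% of proximal tubule-like UMIs in db/db fructose, 21.8% in db/db control and 17.8% in db/m. In endothelium-like cells they made up 7.26%, 16.8% and 9.82%, in mononuclear phagocyte-like cells 6.77%, 14.5% and 7.79%, and in intercalated-like cells 12.6%, 21.9% and 20.0%. The fructose library was the lowest and the db/db control library the highest in each of these classes. Per UMI of a nuclear member, proximal tubule-like cells held 7.57 mitochondrial UMIs in db/db fructose, 15.3 in db/db control and 9.19 in db/m, against 3.45, 4.32 and 3.51 in intercalated-like cells. The mitochondrial share of proximal tubule-like cells was not high in itself, being below that of thick ascending limb-like cells, which was 19.2%, 26.8% and 27.3%, and of distal convoluted tubule-like cells, which was 16.8%, 23.3% and 21.7%. The ratio also counts their low nuclear level.

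**Figure D1:**
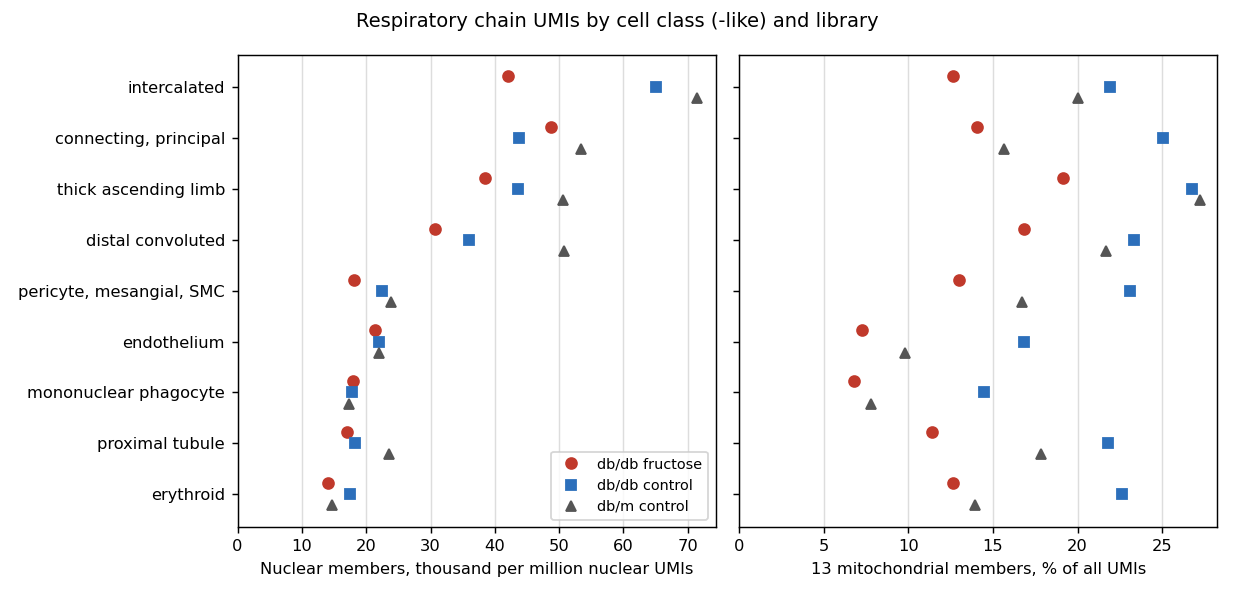
Levels of the 106 nuclear members (left, CPM divided by 1000) and of the 13 mitochondrial members (right, percent of all UMIs) by cell class, with 1 point per library. Intercalated-like cells lead the nuclear panel in db/db control and db/m, and the db/db control library is the highest in the mitochondrial panel in most classes.

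In proximal tubule-like cells the fructose library differed from the db/db control library far more in the mitochondrial members than in the nuclear ones. All 13 mitochondrial members were at least 1.5-fold lower in db/db fructose than in db/db control, from a log2 ratio of -0.85 for mt-Nd1 to -1.35 for mt-Co1, and their sum stood at -1.12 [-1.12, -1.12]. Of the 98 nuclear members measured at 10 CPM or more, 0 were 1.5-fold lower and 0 higher, against 2.5% of all measured genes lower and 5.49% higher. The sum of the nuclear members stood at a log2 ratio of -0.11 [-0.12, -0.10], and 69 of the 98 lay below 0. Their median was -0.09, beside 0.08 over all measured genes. Scaled to all UMIs, mitochondrial ones included, the nuclear sum stood at 0.07, and with free RNA subtracted at 0.27. The nuclear level also differed by depth. In cells with 1000 to under 2000 UMIs it was 14850 CPM in db/db fructose and 18750 in db/db control. With 4000 UMIs or more it was 44670 and 21430 CPM, from 133 and 58 cells, so few deep cells raised the fructose sum. The 8 nuclear members not measured were Cox7b2, Cox8b, Cox8c, Cox4i2, Cox6a2, Cox6b2, Cox7a1 and Ndufa4l2, which are mostly isoforms known from other tissues.

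Among the mitochondrial members, mt-Co1 and mt-Atp8 had the lowest ratios between the diets, at -1.35 and -1.34. The gene mt-Co1 (chrM:5328-6872 on mm10), for the catalytic core of cytochrome c oxidase, held 19067 CPM in db/db fructose, 48743 in db/db control and 33072 in db/m. Its share of the mitochondrial members' UMIs was 14.9%, 17.5% and 15.2% in the same order, so it differed beyond the rest of that genome. Its complex IV partners mt-Co2 and mt-Co3 stood at log2 ratios of -1.16 and -1.09 for db/db fructose over db/db control. In complex V, mt-Atp8 (chrM:7766-7969), a small subunit of the membrane part, held 2030 CPM in db/db fructose, 5153 in db/db control and 2745 in db/m. The neighbouring mt-Atp6, which forms the proton path, held 19392, 41873 and 34273. The genes mt-Atp8 and mt-Atp6 overlap by position, as do mt-Nd4l and mt-Nd4, so their counts are uncertain where reads fall in the shared stretch.

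The complex III gene mt-Cytb, cytochrome b, held 20191 CPM in db/db fructose, 41569 in db/db control and 33663 in db/m. Of the 7 complex I genes, mt-Nd1 held 6892, 12383 and 9622 CPM, the least different of the 13 between the diets. The others stood at log2 ratios for db/db fructose over db/db control of -0.93 for mt-Nd2, -1.26 for mt-Nd3, -0.99 for mt-Nd4l, -1.17 for mt-Nd4, -1.10 for mt-Nd5 and -1.01 for mt-Nd6, the complex I gene on the other strand. As sums, the mitochondrial subunits of complexes I, III, IV and V stood at -0.99, -1.04, -1.20 and -1.13, where mt-Co3 lay above the complex IV value. In each of these genes the fructose library was the lowest of the 3 and db/db control the highest.

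Between the genotypes, db/db control stood above db/m for all 13 mitochondrial members in proximal tubule-like cells, with a summed log2 ratio of 0.36 [0.36, 0.36]. The 1 gene past 1.5-fold was mt-Atp8 at 0.91 [0.89, 0.93]. The others lay between 0.18 for mt-Nd4l and 0.56 for mt-Co1. With no upper limit on mitochondrial UMIs per cell the sum stood at -0.61 and mt-Atp8 at -0.17, so this direction holds for the kept cells.

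**Figure D2:**
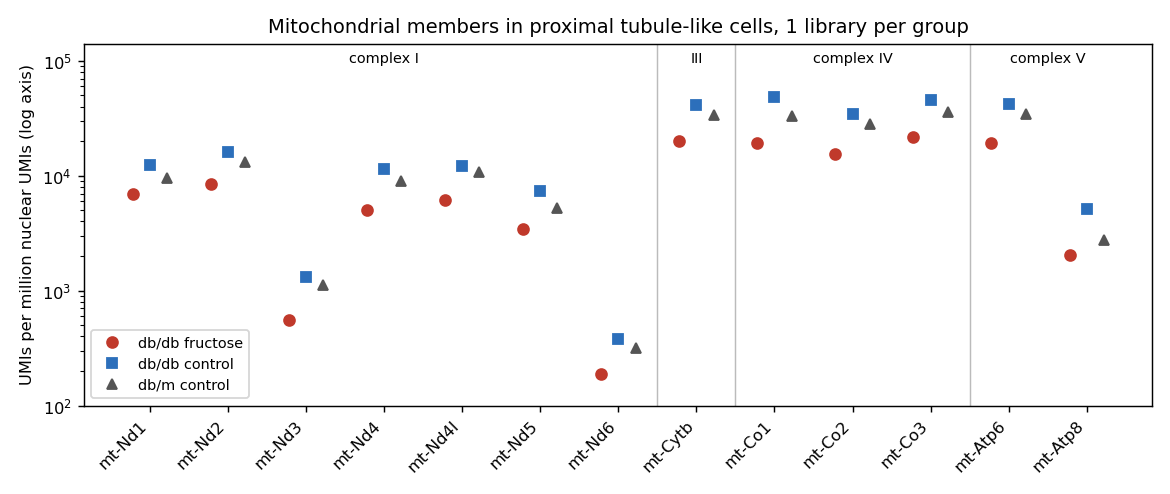
CPM (log axis) of the 13 mitochondrial members in proximal tubule-like cells, grouped by complex, with 1 point per library. The fructose library lies below both control-diet libraries for each gene, for example 19067 against 48743 in db/db control and 33072 in db/m for mt-Co1.

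The nuclear members of complex I in proximal tubule-like cells summed to 4665 CPM in db/db fructose, 5117 in db/db control and 6815 in db/m for the 36 subunits. The fructose over db/db control log2 ratio of the sum was -0.13, against -0.05 for complex II, -0.11 for complex III, -0.13 for complex IV and -0.09 for complex V. Complexes kept close shares of the nuclear members' UMIs: complex I took 28.8%, 29.1% and 29.9% in db/db fructose, db/db control and db/m, and complex V 33.4%, 32.9% and 32.3%. Complex II took 4.25%, 4.01% and 3.64%. The 21 assembly factors, which build the complexes without staying in them, summed to 670 CPM in db/db fructose, 661 in db/db control and 829 in db/m.

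The lowest nuclear ratio between the diets belonged to Cox7b (chrX:106015700-106022450, plus strand), a small subunit of complex IV. It held 202 CPM in db/db fructose, 289 in db/db control and 272 in db/m, and its log2 ratio for the diets was -0.52 [-0.60, -0.43]. Atp5h, subunit d in the stalk of complex V, held 361, 472 and 493 CPM in that order, with -0.39 [-0.45, -0.32] between the diets. Both genes were close between the 2 control-diet libraries and lower in the fructose library. Ndufa1, an accessory subunit of the membrane arm of complex I, held 77.5, 105 and 146 CPM, at -0.43 [-0.57, -0.30] between the diets. Ndufs8, a core subunit that carries iron-sulfur clusters, stood at -0.40 [-0.52, -0.28]. Of the other low members, Ndufc1 stood at -0.35, Atp5j2 and Ndufv3 at -0.33 each, and Cox7a2l, which joins complexes III and IV into supercomplexes, at -0.31.

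The high end between the diets was made up mainly of assembly factors. Sdhaf1 (chr7:30321406-30323895, minus strand) held 55.3 CPM in db/db fructose, 41.9 in db/db control and 48.8 in db/m, a log2 ratio between the diets of 0.40 [0.21, 0.59]. Cox18, which inserts a complex IV subunit into the membrane, held 16.9, 13.1 and 13.5 CPM, at 0.37 [0.02, 0.72]. Ndufaf1, Ndufaf5 and Ndufaf6, assembly factors of complex I, stood at 0.20, 0.19 and 0.18, and Cox16 at 0.15, each with an interval that reached below 0. The subunits among the 8 highest were Cox5a of complex IV at 0.17 [0.09, 0.25] and Ndufc2 of complex I at 0.15 [0.03, 0.28].

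Promoter windows are shown for 5 members: Cox7b and Atp5h, which had the lowest ratios between the diets in their complexes, Cox6a1, the widely expressed partner of the restricted isoform Cox6a2, Sdhd, which carries matches to 3 motifs, and Cox7a1, a restricted isoform described with the other isoforms. Each line runs 5′ to 3′ on the gene's strand, over 250 bases before and 50 after the annotated start, from RefSeq on GRCm38.p6. The windows are chrX:106015450-106015749 on the plus strand for Cox7b, chr11:115419870-115420169 on the minus strand for Atp5h, chr5:115348909-115349208 on the minus strand for Cox6a1, chr9:50603800-50604099 on the minus strand for Sdhd and chr7:30183921-30184220 on the plus strand for Cox7a1. Capitals mark matches, on either strand, to 4 motifs of factors known to act on respiratory chain genes.
Cox7b: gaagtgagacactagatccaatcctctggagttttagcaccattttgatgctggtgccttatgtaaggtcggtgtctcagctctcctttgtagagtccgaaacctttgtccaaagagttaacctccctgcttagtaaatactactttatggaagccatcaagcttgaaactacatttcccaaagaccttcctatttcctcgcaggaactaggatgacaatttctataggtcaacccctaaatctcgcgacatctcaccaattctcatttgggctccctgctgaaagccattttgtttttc
Atp5h: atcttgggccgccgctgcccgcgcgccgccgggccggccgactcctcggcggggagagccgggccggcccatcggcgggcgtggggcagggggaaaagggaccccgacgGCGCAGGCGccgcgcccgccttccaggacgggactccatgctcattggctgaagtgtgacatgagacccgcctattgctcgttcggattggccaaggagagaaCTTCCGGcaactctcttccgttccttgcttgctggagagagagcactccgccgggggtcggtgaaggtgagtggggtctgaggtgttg
Cox6a1: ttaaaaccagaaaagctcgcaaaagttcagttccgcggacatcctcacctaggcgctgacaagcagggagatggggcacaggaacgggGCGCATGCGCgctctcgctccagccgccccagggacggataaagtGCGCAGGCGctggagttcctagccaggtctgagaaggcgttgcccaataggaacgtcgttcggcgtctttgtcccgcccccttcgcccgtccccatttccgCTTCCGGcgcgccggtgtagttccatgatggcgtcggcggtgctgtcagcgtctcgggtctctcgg
Sdhd: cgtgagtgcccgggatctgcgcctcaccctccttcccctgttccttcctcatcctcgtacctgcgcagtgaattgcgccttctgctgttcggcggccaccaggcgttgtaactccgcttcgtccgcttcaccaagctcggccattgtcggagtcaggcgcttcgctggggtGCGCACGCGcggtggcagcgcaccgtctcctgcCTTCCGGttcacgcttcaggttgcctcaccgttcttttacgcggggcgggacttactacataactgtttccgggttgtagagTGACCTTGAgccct
Cox7a1: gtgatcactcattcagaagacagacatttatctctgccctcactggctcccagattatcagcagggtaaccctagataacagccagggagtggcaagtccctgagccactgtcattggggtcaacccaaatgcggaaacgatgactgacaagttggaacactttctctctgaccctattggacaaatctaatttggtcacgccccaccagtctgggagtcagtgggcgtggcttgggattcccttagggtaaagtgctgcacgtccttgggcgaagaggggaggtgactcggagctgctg

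The motifs were GCGCANGCG for NRF1, CCGGAAG for GABPA, AAGATGGCG for YY1 and TCAAGGTCA for ERRA, each searched on both strands, with no mismatch allowed. In the windows printed, matches to different motifs do not overlap. A window was found for 86 of the 106 nuclear members. The NRF1 letters were in 23 of these (26.7%, Clopper-Pearson interval 17.8 to 37.4), against 6.47% of the windows of 27025 genes. The GABPA letters were in 26 (30.2%) against 9.12%, the YY1 letters in 8 (9.30%) against 1.49%, and the ERRA letters in 2 (2.33%), Sdhd and Atp5g3, against 0.407%. At least 1 of the 4 was in 47 members (54.7%), against 15.7% of all genes. Atp5h holds NRF1 and GABPA letters and Cox7b none of the 4, so the lowest members between the diets did not share these letters. A match describes the sequence and not a bound site.

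Between the genotypes the nuclear members of proximal tubule-like cells were lower in db/db control than in db/m when the class was summed, and not lower within its main clusters. Of the 98 measured, 13 were at least 1.5-fold lower and 0 higher in db/db control, against 11.2% of all measured genes lower and 9.71% higher. The members' 13 of 98 is near that background. Their sum stood at a log2 ratio of -0.37 [-0.38, -0.36], 90 of the 98 lay below 0, and the median was -0.36 beside 0.06 over all measured genes. By complex the sums stood at -0.41 for I, -0.23 for II, -0.40 for III, -0.37 for IV and -0.34 for V.

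The class was made of different clusters in the libraries. In db/db fructose and db/db control, cluster 0 held 40.4% and 45.9% of proximal tubule-like cells and cluster 7 held 51.2% and 47.8%, against 2.54% and 7.02% in db/m. In db/m, cluster 6 held 67.0% and cluster 4 held 22.6%, against 5.24% and 1.52% in db/db fructose and 3.04% and 1.29% in db/db control. Cluster 4 held 66968 CPM of nuclear members in db/db fructose, 47680 in db/db control and 43014 in db/m, while clusters 0, 6 and 7 ranged from 14069 to 19712. Malat1, a long RNA kept in the nucleus, held 28521, 37247 and 38411 CPM in cluster 4, and 99929 or more in clusters 0, 6 and 7.

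Within clusters, db/db control stood above db/m in the summed nuclear members by a log2 ratio of 0.11 in cluster 0, 0.18 in cluster 7 and 0.33 in cluster 6. The cells behind these were 2677 against 152, 2787 against 421 and 177 against 4015, so each cluster was mostly of 1 genotype. The class-wide value of -0.37 moved with the make-up of the class by cluster. In the fructose over db/db control comparison the clusters held more nearly equal shares, and the nuclear sums stood at -0.33, -0.29 and -0.24 in clusters 0, 7 and 6, lower than in the class as a whole. The mitochondrial sums there stood at -1.15, -1.12 and -1.13.

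**Figure D3:**
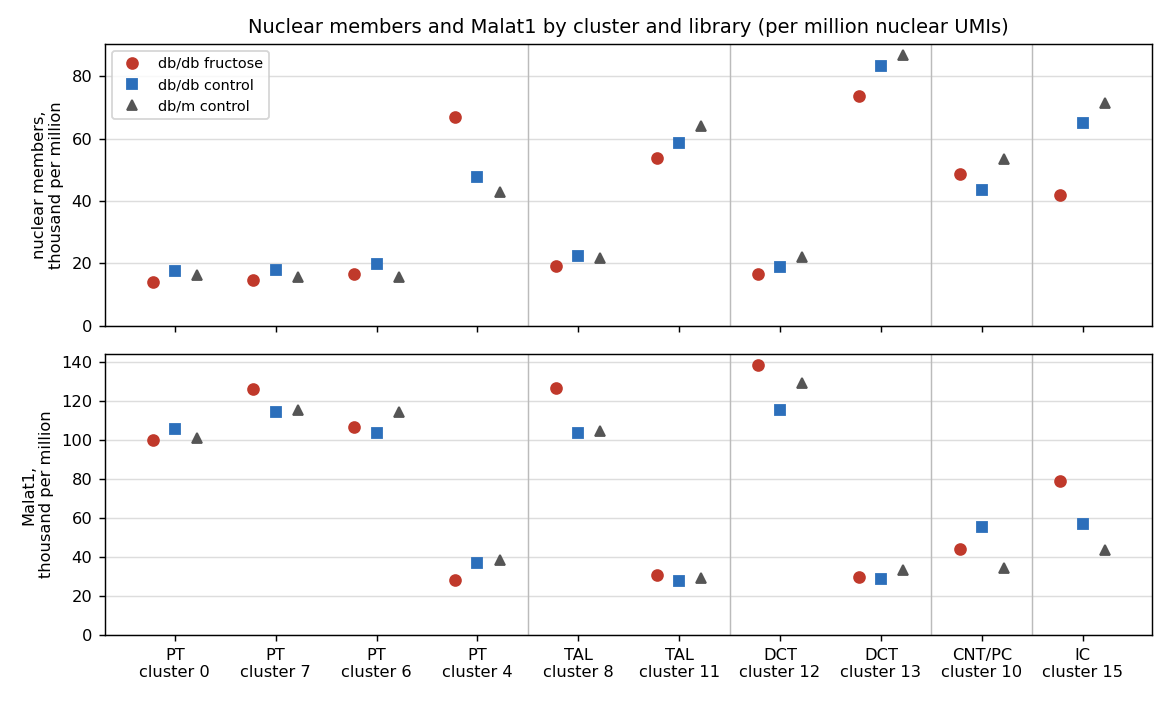
Nuclear members (upper) and Malat1 (lower), both as CPM divided by 1000, in the main clusters of proximal tubule (PT), thick ascending limb (TAL), distal convoluted tubule (DCT), connecting tubule and principal (CNT/PC) and intercalated (IC) cells, with 1 point per library. Clusters 4, 11 and 13 stand high in nuclear members and low in Malat1, unlike the other clusters of their class shown here. The small proximal tubule-like clusters 29 and 33, not shown, are also high in nuclear members and low in Malat1.

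The nuclear members lowest between the genotypes were mostly small accessory subunits. Ndufc2, an accessory subunit of complex I, held 114 CPM in db/db fructose, 103 in db/db control and 184 in db/m, a log2 ratio between the genotypes of -0.84 [-0.96, -0.72]. Ndufa4 (chr6:11900292-11907497, minus strand), which despite its name belongs to complex IV, held 329.7, 330.7 and 591 CPM, at -0.84 [-0.91, -0.77]. Both db/db libraries lay well below db/m for these genes in the class sum. Within clusters 0, 7 and 6, however, Ndufa4 stood at 0.05, 0.00 and 0.00 between the genotypes. Ndufa6 stood at -0.78, Sdhaf4 and Ndufaf2 at -0.70 each, Atp5e of the catalytic head of complex V at -0.67, Ndufa13 at -0.65 and Ndufb4 at -0.64.

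At the other end were Cox11, which delivers copper to complex IV, at 0.25 [-0.01, 0.51], Ndufaf7 at 0.19 [-0.09, 0.47], Ndufaf5 and Cox10 at 0.14 each, and Sdhaf2 at 0.06, all with intervals that include 0. Sdha, the succinate-oxidising subunit of complex II, held 239 CPM in db/db fructose, 236 in db/db control and 235 in db/m. Atp5a1, the alpha subunit of the catalytic head, held 724, 711 and 710. These core catalytic genes differed little between libraries, within their intervals. Cox7b stood at 0.09 [0.01, 0.17] between the genotypes in the class and at 0.32, 0.68 and 0.64 in clusters 0, 7 and 6, and at -0.75, -0.76 and -0.32 between the diets in those clusters. Atp5h stood at -0.55, -0.57 and -0.73 between the diets there, while Atp5a1 of the same complex stood at -0.02, -0.04 and -0.04.

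Outside the chain itself, cytochrome c (Cycs), which carries electrons between complexes III and IV, differed more between the genotypes than any nuclear member. It held 236.5 CPM in db/db fructose, 220.1 in db/db control and 546 in db/m, a log2 ratio between the genotypes of -1.31 [-1.39, -1.23]. Within clusters 0, 7 and 6 it stood at -0.70, -0.62 and -0.55. Its partner Cyc1 of complex III, which the naming rule for members does not catch, held 323, 288 and 309 CPM.

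Among regulators of the nuclear genes, the largest ratios belonged to coactivators. Ppargc1a, a coactivator that drives mitochondrial gene expression, held 169 CPM in db/db fructose, 239 in db/db control and 116 in db/m. That is a log2 ratio of 1.04 [0.94, 1.15] between the genotypes and -0.50 [-0.59, -0.41] between the diets, and within clusters 0, 7 and 6 it stood at 0.88, 0.69 and 1.03, and at -0.41, -0.53 and -0.72. Its relative Ppargc1b held 49.5, 72.2 and 35.0 CPM. Of the 9 regulators measured, 2 were 1.5-fold higher and 0 lower between the genotypes (median 0.40), against 9.71% and 11.2% of all measured genes, and 0 higher and 1 lower between the diets, against 5.49% and 2.5%. The lower one was Pprc1, another coactivator of the family, at -0.59, while Esrra stood at 0.28 and Gabpa at 0.27.

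The remaining lists held few genes past 1.5-fold. Of 14 genes that copy and transcribe mitochondrial DNA, 0 were past 1.5-fold in either comparison, with Polg, the polymerase, at 0.44 and Slirp, an RNA-binding protein, at -0.44 between the genotypes. Of 13 citrate cycle genes, 0 were past 1.5-fold in either, with Suclg1 the lowest at -0.53 between the genotypes. Of 29 assembly factors outside the rule, 5 were lower and 0 higher between the genotypes, against 11.2% and 9.71% of all measured genes, with Higd2a at -0.85 and Coa6 at -0.68 the lowest and Ttc19 at 0.47 the highest, and 0 were past 1.5-fold between the diets. Of 7 other enzymes that feed ubiquinone, Prodh, which oxidises proline, held 890.5 CPM in db/db fructose, 856 in db/db control and 534.5 in db/m, and Etfb, an electron carrier of fatty acid oxidation, 256, 309.5 and 508. Those stand at 0.68 and -0.72 between the genotypes. Dhodh, of pyrimidine synthesis, was the 1 enzyme past 1.5-fold between the diets, at 0.69 [0.30, 1.08]. Among 7 carriers of ATP, phosphate and protons, Ucp2 held 23.1, 38.3 and 13.9 CPM, at 1.46 [1.16, 1.76] between the genotypes and -0.73 [-0.97, -0.49] between the diets, and no other was past 1.5-fold.

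Other measures moved with these libraries in proximal tubule-like cells. The list of 15 dissociation and stress genes summed to 5258 CPM in db/db fructose, 3671 in db/db control and 4112 in db/m, with 6 members higher and 1 lower between the diets, against 5.49% and 2.5% of all measured genes. Egr1 and Junb, immediate-early genes, stood at 1.12 and 1.08, and the chaperone gene Hsp90aa1 at -0.58. The 79 ribosomal protein genes stood at a log2 ratio of -0.04 between the diets and -0.65 between the genotypes. Their part in the results for the respiratory chain was not tested.

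Among the other classes, the mitochondrial members as counted were lower in db/db fructose than in db/db control in each class compared. With free RNA subtracted, distal convoluted tubule-like cells turned to 0.38 while the other classes stayed below 0. The estimate for distal convoluted tubule-like cells was 59.0% of nuclear UMIs in db/db fructose and 77.1% in db/db control. It was read from proximal tubule markers, so it cannot tell free RNA from mixed cells. The summed log2 ratio was -1.37 in endothelium-like, -1.22 in mononuclear phagocyte-like, -1.03 in connecting tubule and principal-like, -1.02 in erythroid-like, -1.01 in pericyte, mesangial and smooth muscle-like, -0.95 in intercalated-like, -0.63 in thick ascending limb-like and -0.59 in distal convoluted tubule-like cells. All 13 genes were at least 1.5-fold lower in the classes from endothelium-like to intercalated-like, except for 12 of 13 in erythroid-like cells, and 7 and 8 of the 13 in the last pair. Taken by cluster, the sum was lower in all 12 named clusters with enough cells, from -1.39 to -0.40. The share of barcodes removed for over 50% mitochondrial UMIs also differed between these libraries, as given above, and its part in this result was not tested.

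Between the genotypes the mitochondrial members stood at different class sums, some of which turned with the cells taken. Their summed log2 ratio for db/db control over db/m was 0.89 in endothelium-like, 0.85 in connecting tubule and principal-like and 0.85 in erythroid-like cells, with 13, 12 and 12 of 13 genes at least 1.5-fold higher. It was 0.16 in intercalated-like, 0.14 in distal convoluted tubule-like and -0.04 in thick ascending limb-like cells. Within clusters it was 0.50 in cluster 8 and -0.18 in cluster 11 of thick ascending limb-like cells, and -0.15 in cluster 12 and 0.75 in cluster 13 of distal convoluted tubule-like cells. In cells with 1000 to under 2000 UMIs, a range chosen after seeing the data, it was 0.61 in thick ascending limb-like, 0.70 in distal convoluted tubule-like, 0.28 in connecting tubule and principal-like and 0.77 in endothelium-like cells. With free RNA subtracted it was -0.30, -0.65, 0.94 and 1.16 in that order and -0.04 in intercalated-like cells. The order of the classes therefore did not hold across these settings. The gene mt-Atp8 stood highest of the 13 in each of these, from 0.51 in thick ascending limb-like cells to 1.56 in erythroid-like cells.

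**Figure D4:**
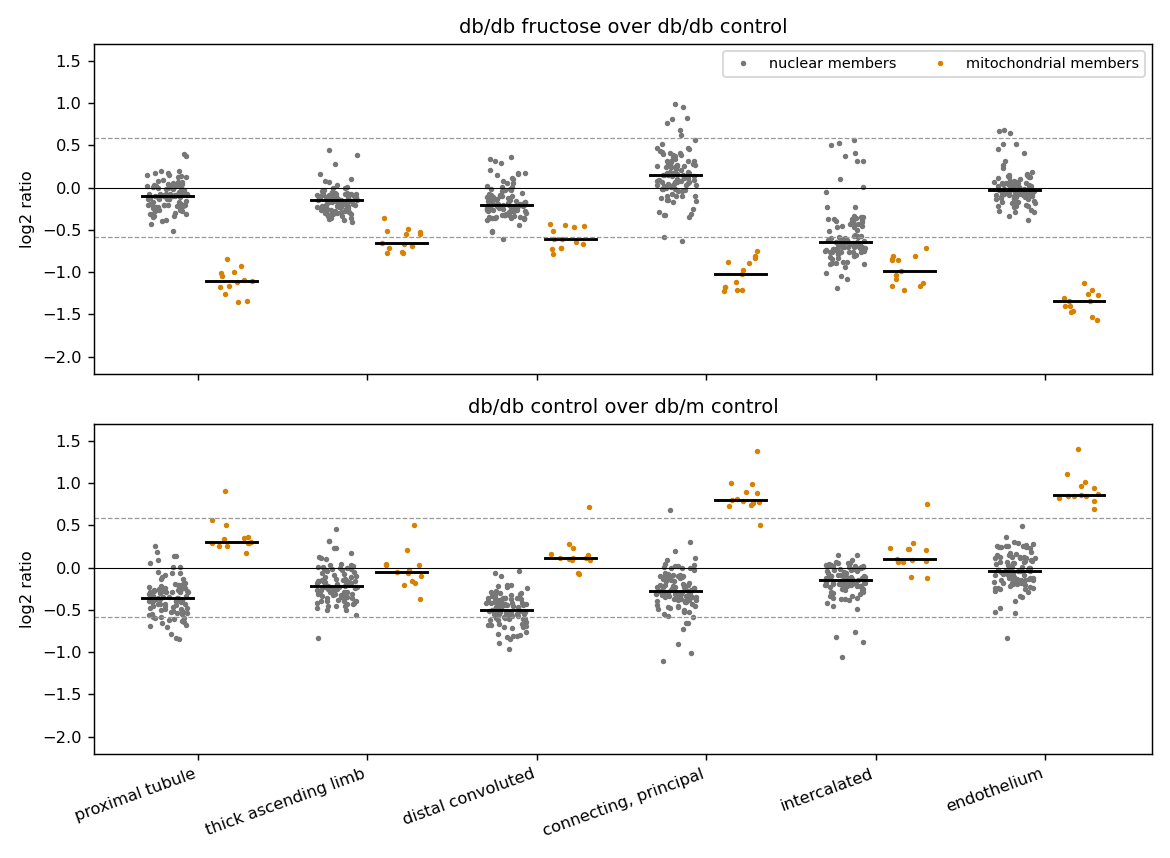
Log2 ratios of each measured member by class, for db/db fructose over db/db control (upper) and db/db control over db/m (lower). Points are genes, bars are medians, and dashed lines mark 1.5-fold; the mitochondrial members lie below 0 in each class of the upper panel, and nuclear members of intercalated-like cells lie below the lower line in 63 of 100 cases there.

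Summed over the class, nuclear members of intercalated-like cells had the lowest ratio between the diets of any class compared. Of 100 measured, 63 were at least 1.5-fold lower in db/db fructose and 0 higher, against 11.2% of all measured genes lower and 20.3% higher, and the sum stood at -0.63. Cox14, an assembly factor of complex IV, held 90.7 CPM in db/db fructose and 191 in db/db control, at -1.08 [-1.52, -0.65]. Ndufa3, an accessory subunit of complex I, held 134 and 270 CPM, at -1.01 [-1.37, -0.66]. The highest members were Ndufaf4 at 0.56 [0.09, 1.03] and Cox11 at 0.53 [-0.20, 1.24].

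Depth moved with this result. The share of intercalated-like cells with at least 4000 UMIs was 7.75% in db/db fructose, 18.9% in db/db control and 32.6% in db/m. The nuclear members' level increased with depth in each library: in cells with 1000 to under 2000 UMIs it was 20575 CPM in db/db fructose, 21329 in db/db control and 24632 in db/m, and with 4000 or more it was 77689, 100395 and 87144. In that lower range, with 228 against 290 cells, the sum stood at a log2 ratio of -0.05, and 8 of 100 members were lower, against 15.4% of all measured genes. Malat1 held 108435 CPM in db/db fructose and 104744 in db/db control there. Over the whole class, Atp6v1g3, a proton pump subunit of these cells, held 2537 CPM in db/db fructose and 5129 in db/db control, Malat1 stood at 0.47 and the ribosomal protein genes at -0.56. Slc26a4 and Slc4a1, markers of base- and acid-secreting cells, stood at -0.11 and -0.05. The nuclear ratio in this class was thus near 0 in the range that held most cells of both db/db libraries. With 2000 to under 4000 UMIs the levels were also close, at 46258 CPM in db/db fructose and 46164 in db/db control, from 63 and 111 cells. At 4000 UMIs or more db/db fructose lay below db/db control, from 30 against 96 cells in a range with no upper bound. The make-up of the class also differed. At clustering resolution 2, a cluster led by Atp6v1g3, Aqp6 and Slc4a1 held 57 cells of db/db fructose, 137 of db/db control and 88 of db/m. Its median was 4773.5 UMIs. A cluster led by Slc4a9 and Slc26a4, with a median of 1395.5 UMIs, held 330, 374 and 106. The part of this make-up in the class ratio was not tested.

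**Figure D5:**
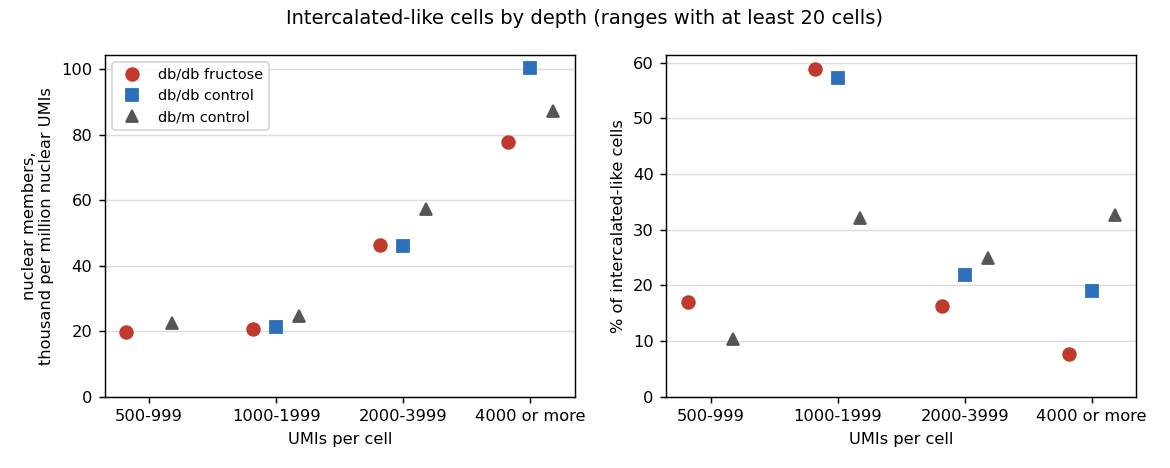
Nuclear members (left, CPM divided by 1000) and percent of intercalated-like cells (right) by UMIs per cell, with 1 point per library. Levels climb to 77689, 100395 and 87144 CPM in db/db fructose, db/db control and db/m at 4000 UMIs or more, and the fructose library has the fewest cells in the deepest range.

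In the other classes the class sums differed less between the diets. In cells with 1000 to under 2000 UMIs this order did not hold, since the sum there was -0.53 in distal convoluted tubule-like, -0.34 in proximal tubule-like, -0.31 in connecting tubule and principal-like, -0.30 in thick ascending limb-like and -0.25 in endothelium-like cells. Over whole classes the nuclear sum stood at -0.18 in thick ascending limb-like cells, with 0 of 99 members lower against 2.34% of all genes and 0 higher against 5.52%. It stood at -0.23 in distal convoluted tubule-like cells, with 1 of 100 lower against 3.41% and 0 higher against 3.86%. In that UMI range 35 of 100 were lower in distal convoluted tubule-like cells, against 10.8% of all measured genes. Over the whole class, the members at the ends were Cox11 at 0.39 and Cox20 and Cox14 at -0.38 each in thick ascending limb-like cells. In distal convoluted tubule-like cells they were Ndufa1 at -0.53 and Ndufa5 at -0.51, again over the whole class. Connecting tubule and principal-like cells were the 1 class whose sum stood clearly above 0, at 0.16, with 7 of 100 higher and 1 lower against 8.69% higher and 5.83% lower of all genes. Ndufaf3, an assembly factor of complex I, held 89.2 CPM there in db/db fructose, 44.9 in db/db control and 96.8 in db/m, so db/db control was the library that stood apart. In cells of this class with 1000 to under 2000 UMIs the nuclear sum stood at -0.31, so the direction between the diets turned there. Endothelium-like cells stood at -0.04, with 3 of 98 higher against 5.2% and 0 lower against 4.45%, and mononuclear phagocyte-like cells at 0.01, with 10 of 96 higher against 21.6% and 7 lower against 17.6%. The pericyte, mesangial and smooth muscle-like class stood at -0.30 and the erythroid-like class at -0.31. Their calls, 8 higher and 19 lower of 101 against 20.9% and 18.3% in the pericyte, mesangial and smooth muscle-like class, and 5 higher and 29 lower of 91 against 24.8% and 27.4% in erythroid-like cells, rest on low counts.

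Between the genotypes, distal convoluted tubule-like cells had the lowest class sum of the nuclear members. All 99 measured members lay below 0, 28 were at least 1.5-fold lower against 8.93% of all genes, 0 were higher against 17.4%, and the sum stood at -0.50. The count of 28 rests on the processing: it was 80 at a 30% mitochondrial limit, 38 with free RNA subtracted, 6 in cells with 1000 to under 2000 UMIs, 3 at clustering resolution 2 and 2 with doublets kept. The 8.93% belongs to the main setting, and these other counts are not set against a share of all genes. They show only how far the count moves, and are not read as results about the members. The free RNA estimate was 77.1% of the class's nuclear UMIs in db/db control and 46.0% in db/m, the widest gap of the classes compared. It rests on proximal tubule markers alone, so cells mixed with proximal tubule cells count in it too. With that estimate subtracted the sum stood at -0.40. Ndufb2, an accessory subunit of complex I, held 152 CPM in db/db control and 273 in db/m, at -0.85 [-1.05, -0.64], and the assembly factor Ndufaf8 stood at -0.96 [-1.39, -0.53]. The members nearest 0 were Ndufb7 at -0.04 and Cox16 at -0.06. This class was also made of clusters that differ in level: cluster 12 held 16751 CPM in db/db fructose, 18899 in db/db control and 22033 in db/m, and cluster 13 held 73770, 83390 and 86770. Within them the ratio between the genotypes was -0.22 in cluster 12 and -0.06 in cluster 13, and in cells with 1000 to under 2000 UMIs the class stood at 0.17, so the direction turned there. The levels at 500 to under 1000 UMIs were 33445 CPM in db/db control and 26700 in db/m. At 2000 to under 4000 they were close, at 51320 and 51384. Only at 4000 UMIs or more did db/db control lie well below db/m, at 26232 and 92451 CPM from 145 and 52 cells. Malat1 held 103909 and 34265 CPM in those deep cells.

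Connecting tubule and principal-like cells stood at -0.29 between the genotypes, with 7 of 100 lower against 7.04% of all genes and 1 higher against 12.3%. In cells with 1000 to under 2000 UMIs it was -0.01, from 24492 CPM in db/db control and 24649 in db/m. Ndufaf3 was the lowest over the whole class, at -1.11 [-1.50, -0.73]. Thick ascending limb-like cells stood at -0.21, with 1 of 99 lower against 4.74% and 0 higher against 8.55%, and Atp5e at -0.57 [-0.65, -0.48] was the lowest of the named members. Intercalated-like cells stood at -0.14, with 4 of 100 lower against 11.7% and 0 higher against 13.7%. Endothelium-like cells stood at 0.01, with 1 of 98 lower against 7.29%, 0 higher against 11.2%, Ndufs1, the largest core subunit of complex I, at 0.50 [0.04, 0.97] and Sdhaf1 at -0.52 [-1.02, -0.03]. Erythroid-like cells stood at 0.25, with 25 of 93 higher and 6 lower against 44.6% and 13.9%. In thick ascending limb-like cells the ratio was 0.03 in cluster 8, -0.14 in cluster 11 and 0.09 in cells with 1000 to under 2000 UMIs, so the direction turned there too. Over the 12 named clusters, the nuclear sum lay above 0 in 6 and below 0 in 6, from -0.29 to 0.33.

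Some members are isoforms of a subunit with a restricted range. Cox4i2 (chr2:152754173-152765037, plus strand), the isoform of a regulatory complex IV subunit known from lung and smooth muscle, had 48 UMIs in db/db fructose, 15 in db/db control and 28 in db/m, of which 38, 12 and 23 lay in pericyte, mesangial and smooth muscle-like cells. That is 62.2, 71.1 and 167 CPM there. Ndufa4l2 (chr10:127514967-127517154, plus strand), a relative of Ndufa4, had 101, 43 and 33 UMIs, of which 78, 31 and 19 lay in the same class, at 128, 184 and 138 CPM. The other classes held few or 0 UMIs of either gene, so their counts cannot be ranked between libraries beyond counting error.

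Cox7a1 (chr7:30184144-30186078, plus strand), known as the heart and muscle isoform of a small complex IV subunit, was found mainly in the collecting duct and thin limb. Intercalated-like cells held 53.8 CPM in db/db fructose, 80.0 in db/db control and 112 in db/m, from 35, 84 and 61 UMIs. Connecting tubule and principal-like cells held 30.8, 38.5 and 77.3 CPM, from 77, 66 and 182 UMIs, a log2 ratio between the genotypes of -1.01 [-1.43, -0.59]. Thin limb-like cells held 70.8, 11.1 and 26.3 CPM, from 28, 2 and 12 UMIs, so they were the highest class in db/db fructose. Proximal tubule-like cells held 5.2, 3.5 and 7.5 CPM. Cox7a1 thus had the largest intercalated over proximal ratio of the 92 ranked members, a log2 of 3.37 in db/db fructose, 4.51 in db/db control and 3.91 in db/m. Cox6b2 (chr7:4751792-4753094, minus strand), known as a testis isoform, held 13.8, 31.4 and 29.4 CPM in intercalated-like cells, from 9, 33 and 16 UMIs, and 6.6, 8.4 and 3.1 CPM in proximal tubule-like cells, from 83, 67 and 29 UMIs.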

How the data were processed

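Per the labels and the submitters' processing notes, the authors made UMI counts per gene and barcode with Cell Ranger 6.0.0 against mm10, and the deposited counts were read as they stood. Barcodes were kept from 200 genes upward and up to 50% mitochondrial UMIs, and the highest Scrublet scores were removed at 0.8% per 1000 barcodes. The 3 libraries were clustered together in scanpy 1.11.5 (2000 variable genes, 30 principal components, 15 neighbours, Leiden resolution 1, chain genes left out), without integration. This gave 18 clusters, and splitting 2 of them gave 35 in all. A name needed 3 markers, each in at least 10% of cells and 2-fold higher, a mean log2 fold of 1.2 and a margin of 0.5. These limits were revised with the clusters in view, so differences from another naming can come from these rebuilt names. UMIs were summed per class and library and scaled to CPM of nuclear UMIs, with at least 100 cells, and a gene was measured at 10 CPM or more and called at 1.5-fold. Free RNA was estimated as the level of proximal tubule markers in a class relative to the whole library. For proximal tubule-like cells, markers of other tubule classes and endothelium were used. Doublets or wrongly placed cells raise this estimate as well.

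The text names, in proximal tubule-like cells, the 8 highest and 8 lowest measured nuclear members per comparison, all 13 mitochondrial members, restricted isoforms, and in other classes from the 2 highest and 2 lowest with at least 50 CPM and 20 UMIs. Other lists give up to 2 genes at each end. Esrra, Gabpa and the cluster values were chosen after their values were seen. The members and lists were chosen with earlier results of these data known. The ratio method, tested on simulated data with 200 of 9026 genes changed 2-fold for the genotypes, called 100% of those raised and 99% of those lowered. Gene positions are from GENCODE M21.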

Additional observations from a re-analysis of the deposited data

Results flagged for a closer look

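Some nuclear members stood past 1.5-fold in opposite directions in different classes for db/db fructose over db/db control, and the difference between classes was not tested in any of them. Atp5g2, which codes for the rotor ring of complex V, had a log2 ratio of 0.69 in connecting tubule and principal-like cells and -0.88 in intercalated-like cells. Cox6b2 stood at 0.96 and -1.18 in those classes, and Ndufaf8 at 0.77 and -0.84. Ndufa3 stood at 1.26 in pericyte, mesangial and smooth muscle-like cells, from 52 against 6 UMIs, and at -1.01 in intercalated-like cells. Ndufs8 stood at 0.59 in mononuclear phagocyte-like cells and -0.59 in intercalated-like cells. With 63 of 100 members lower in intercalated-like cells, a member higher elsewhere can readily meet this description, though not each one does.

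Ndufb1-ps, left out of the members because of its ending, had UMIs in every library: 1256 in db/db fructose, 1284 in db/db control and 1277 in db/m.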

How the results depend on the processing

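No paired analysis was possible because each group has 1 library. For the same reason no replicate could be left out. Direction below is that of log2 ratios in proximal tubule-like cells, and the restriction to clusters 0, 7 or 6, the addition of cluster 3 and the restriction to cells with 1000 to 2000 UMIs were chosen after seeing the data.

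The mitochondrial ratio between the diets (-1.12) stayed below 0 in every setting run: -0.94 over all UMIs, -1.19 with size factors, -1.07 at a 30% mitochondrial limit, -1.03 with no limit, -1.15 with 500 genes, -1.15 with doublets kept, -1.13 at resolution 2, -1.11 with members used for clustering, -1.06 with free RNA subtracted, -1.15, -1.12 and -1.13 in clusters 0, 7 and 6, -1.42 with cluster 3 added and -1.26 at 1000 to 2000 UMIs. The nuclear ratio between the diets (-0.11) was 0.072, -0.18, -0.068, -0.11, -0.31, -0.14, -0.22, -0.086, 0.27, -0.33, -0.29, -0.24, -0.35 and -0.34 in the same order. It thus turned above 0 over all UMIs and with free RNA subtracted. The mitochondrial ratio between the genotypes (0.36) was 0.29, 0.31, 0.63, -0.61, 0.52, 0.36, 0.35, 0.34, 0.20, 0.51, 0.65, 0.81, 0.71 and 0.52, so it turned below 0 with no mitochondrial limit. The nuclear ratio between the genotypes (-0.37) was -0.44, -0.42, -0.33, -0.35, -0.19, -0.29, -0.30, -0.36, -0.87, 0.11, 0.18, 0.33, -0.077 and -0.025, so it turned above 0 within clusters.

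Members 1.5-fold lower between the genotypes (13) numbered 22 over all UMIs, 20 with size factors, 8 at the 30% limit, 2 with 500 genes, 7 with doublets kept, 72 with free RNA subtracted, 0 at 2-fold, 5, 4 and 6 in clusters 0, 7 and 6, 0 with cluster 3 added and 0 at 1000 to 2000 UMIs. Members higher (0) numbered 1 with doublets kept, 1 at a minimum of 1 CPM, and 10, 5 and 21 in clusters 0, 7 and 6, against 21.8%, 12.8% and 23.6% of all measured genes. Members lower between the diets (0) numbered 1 with size factors, 3 with 500 genes, 1 with doublets kept, 2 at resolution 2, 1 at a minimum of 1 CPM, 9, 3 and 17 in clusters 0, 7 and 6 (4.32%, 2.99% and 16.9% of all measured genes), 6 with cluster 3 added and 7 at 1000 to 2000 UMIs. Members higher between the diets (0) numbered 10 with free RNA subtracted and 7 in cluster 6 (10.9% and 22.1% of all measured genes).

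Genes called between the genotypes that changed sign were mt-Atp8 with no mitochondrial limit (-0.17), Atp5e in clusters 0 (0.035) and 7 (0.20), Ndufa4 (0.053) and Ndufaf2 (1.19) in cluster 0, Ndufa13 in clusters 7 (0.16) and 6 (0.26), Ndufb4 in both (0.10 and 0.10), Sdhaf4 in both (0.36 and 1.37) and Ndufc2 in cluster 6 (0.14). Between the diets, the mitochondrial members of distal convoluted tubule-like cells stood at 0.38 with free RNA subtracted. The cause of these changes was not tested. In intercalated-like cells the nuclear ratio between the diets ranged from -0.74 to -0.05, and members lower from 4 to 71. Over all settings, 25 of 308 class sums and 64 of 812 single-gene ratios changed sign, 13 of these from past 1.5-fold. Counting error is small for sums and large for classes of few cells, and 1 library per group sets the limit on each result.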

Other observations

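Cox6a2, the isoform of a complex IV subunit known from heart and skeletal muscle, was concentrated in 1 small cluster that met no name. The leading genes of that cluster were Siglech, Ly6d, Irf8 and Bst2. It held 18 UMIs of Cox6a2 in 14 cells of db/db fructose, 23 in 22 cells of db/db control and 27 in 21 cells of db/m, or 382, 491 and 519 CPM. Proximal tubule-like cells held 3.7, 6.4 and 5.2 CPM. Lymphocyte-like cells of db/m held 18 UMIs, 197 CPM, against 15.6 CPM in db/db fructose and 16.7 in db/db control. The cluster was chosen after its values were seen, and no test was run.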
